A study of Mus musculus with 4 samples.

Results

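The steroid hormone receptor genes are Esr1 and Esr2, which encode the estrogen receptors α and β, Pgr (the progesterone receptor), Nr3c1 (the glucocorticoid receptor) and Nr3c2 (the mineralocorticoid receptor). Their open chromatin was followed by ATAC-seq, in which a transposase cuts accessible DNA, in LβT2 cells, an established mouse gonadotrope line that the sample titles name LbT2b. The cells were kept without serum overnight and then given vehicle or activin A at 1 nM for 6 h, with 2 libraries per treatment, and 50000 cells went into each reaction. The study concerned enhancers of the gene for the β subunit of follicle-stimulating hormone. Peaks were taken as members where the deposited annotation gave a receptor gene as the nearest gene or placed the peak in one of its introns, exons or promoters. This gave 38 of 83344 peaks in vehicle library 1, 86 of 178358 in vehicle library 2, 46 of 85112 in activin library 1 and 28 of 70692 in activin library 2. Merged over the libraries where they overlapped, the member peaks fell into 122 of 255101 regions.

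Steroid receptors are transcription factors that bind DNA once a hormone has entered the cell and bound them. In the pituitary, estrogen, progesterone and glucocorticoids feed back on the gonadotropes that make the gonadotropins, and activin, a ligand of the TGFβ family, raises transcription of the follicle-stimulating hormone β gene through SMAD proteins. A gene's chromatin state says where factors can reach the DNA and is not a measure of its RNA.

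Depth ranged from 172146474 to 224226184 high-quality autosomal reads per library, which are the alignments that the quality report counts after leaving out duplicates and poor alignments. Enrichment of reads at start sites was 2.72 and 2.48 under vehicle, against 3.12 and 3.04 under activin, so both activin libraries were above both vehicle libraries. Vehicle library 2 stood apart, with 178358 peaks, of which 76.8% had a −log10 q under 2. The −log10 q is the authors' own measure of the significance of a peak over the peak caller's background, and not of its height. All 8 gonadotrope markers examined, among them Lhb, Cga and Gnrhr, had a peak at their start in all 4 libraries. None of the 4 markers of other pituitary lineages that the annotation named (of 6) and none of 3 blood cell markers did, whereas 1 of 2 endothelial markers, Cdh5, did. The fibroblast markers Col1a1 and Pdgfra each had a start-site peak in 3 libraries, both activin libraries among them, with a −log10 q of 1.39 to 5.09. The part of other cell types in the results was not tested. A region with fewer reads cannot be told apart from one that is open in fewer cells.

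Promoter windows of 4 of the 5 receptor genes were found in RefSeq (GRCm38.p6), as 5 windows of the 250 bases before a start site, since Esr1 has 2. They are shown because the results turn on whether these start sites carried a peak. The Esr2 window is given whole, and 30 bases are given for Pgr, Nr3c2 and the first Esr1 window, 5′ to 3′ on the gene's strand. These latter windows lie after another annotated start of their gene, so they may hold transcribed exon sequence. Capitals mark the GC box GGGCGG, the receptor core motif GGTCA and the paired SMAD box GTCTAGAC, each on either strand.
Esr1, chr10:4611740-4611769, plus strand: tcaacatgttcGTCTAGACttcgagcttta
Esr2, chr12:76177260-76177509, minus strand: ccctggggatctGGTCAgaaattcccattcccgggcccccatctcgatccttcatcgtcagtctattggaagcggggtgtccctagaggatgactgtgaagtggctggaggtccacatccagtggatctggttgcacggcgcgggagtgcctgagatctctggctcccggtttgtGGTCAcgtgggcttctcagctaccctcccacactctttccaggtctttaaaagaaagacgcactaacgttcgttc
Pgr, chr9:8899774-8899803, plus strand: gggaggggctttGGGCGGgccttcctagag
Nr3c2, chr8:76902242-76902271, plus strand: cgcCCGCCCcctcctcttggcCCGCCCcgg

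The Nr3c2 window was the richest in CpG, with 17 CpG dinucleotides in 250 bases, against 12 for Esr2, 4 for Pgr and 4 and 7 for the Esr1 windows. The median over 32851 RefSeq promoters was 6. The GC box, which Sp family factors bind, was found 3 times in the Nr3c2 window and 1 time in the Pgr window. It was not found in the Esr1 and Esr2 windows, and 32.7% of all promoter windows of that length held it. The core GGTCA, to which many nuclear receptors bind, was found 2 times each for Esr2 and Nr3c2, and in 35.2% of all windows. In Esr2 the copy that begins 75 bases before the start overlaps an E box (CANNTG) that begins 72 bases before it. The paired SMAD box was found in the first Esr1 window, 238 bases before the RefSeq start, and in 0.167% of all windows. No receptor window held a full estrogen response element (GGTCA and TGACC with 3 bases between, in 0.0639% of all windows) or glucocorticoid response element (GNACA and TGTNC with 3 bases between, in 0.387%). These matches describe letters and not bound sites.

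Start sites differed between the receptor genes. Only Nr3c1 had a peak centred within 1 kb of its annotated start in all 4 libraries. Esr2 and Nr3c2 had such peaks in vehicle library 1 and activin library 1 alone, and Esr1 and Pgr had none in any library. The annotation's promoter class also gave Nr3c2 a peak in activin library 2 and Esr1 a peak in vehicle library 2. By that class too, Nr3c1 alone had one in all 4 libraries, and Pgr had none. Of the 21034 genes with a start-site peak by the annotation in at least 1 library, 52.9% had one in all 4. That share leaves out genes without any such peak and does not use the 1 kb rule. The window shown for Pgr lay 596 to 878 bp from the nearest peak, the first Esr1 window 9.33 to 13.1 kb, and the second Esr1 window 20.1 kb in every library. Peaks covered 140 and 93 bp of the Esr2 window and 131 and 250 bp of the Nr3c2 window in vehicle library 1 and activin library 1, in that order.

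**Figure D1:**
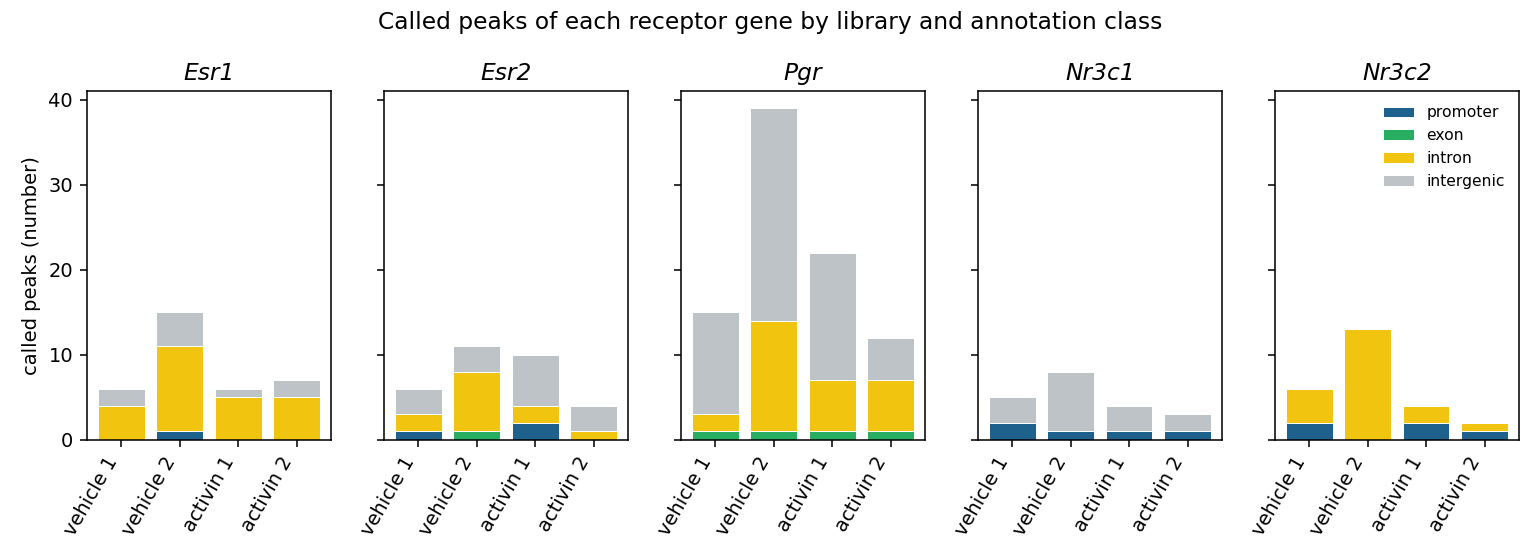
Number of called peaks (vertical axis) of each receptor gene in each library, stacked by the annotation class of the peak. Pgr had the most peaks in every library, from 12 to 39, and vehicle library 2 had the tallest bar for all 5 genes.

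Promoter peaks numbered 5, 2, 5 and 2 in the order of vehicle 1, vehicle 2, activin 1 and activin 2. They were 13.2%, 2.33%, 10.9% and 7.14% of member peaks, beside 13.0%, 7.51%, 12.9% and 14.7% of all peaks. Intron peaks numbered 12, 43, 15 and 13 in that order, and peaks between genes 20, 39, 25 and 12. Exons held 1 or 2 peaks in each library. Pgr, by nearest gene, had 14, 32, 18 and 7 peaks in the same order, more than 98.2%, 98.5%, 99.1% and 93.3% of the genes named in those lists. The median gene had 2 or 3. Nr3c2 had the fewest of the 5 receptor genes by that count, with 2, 2, 1 and 1. This was more than 40.1% and 24.6% of the named genes in vehicle libraries 1 and 2, and no named gene had fewer in the activin libraries. Counted with the peaks placed in the gene by the annotation, it had 6, 13, 4 and 2.

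The number of member peaks was 62.0 ± 33.9 (SD, n = 2) with vehicle and 37.0 ± 12.7 (SD, n = 2) with activin, and the groups overlapped (exact permutation p = 0.667, 2-sided; 2 against 2 cannot go below 0.33). The difference of −25.0 peaks was −1.0 without vehicle library 2. Counting peaks at 5 or more on the −log10 q scale it was 3.0, from 6 and 4 peaks with vehicle to 9 and 7 with activin (exact permutation p = 0.33). All peaks of the series at that level numbered 12377 and 12760 with vehicle, against 19819 and 15807 with activin. Members were 0.0485% and 0.0313% of these with vehicle, against 0.0454% and 0.0443% with activin, so the shares overlapped. Of the 5 genes, Nr3c1 and Nr3c2 had fewer peaks in both activin libraries than in either vehicle library. The counts were 5 and 8 against 4 and 3 for Nr3c1, and 6 and 13 against 4 and 2 for Nr3c2 (exact permutation p = 0.33 for each). For Nr3c1 this rests on split peaks. Vehicle library 1 had 2 peaks in its promoter region and 2 in the region at −68.4 kb, and counted by region the groups overlapped. How many of all genes have such an order was not counted, so it is not read as a trait of Nr3c1 or Nr3c2. As a share of all peaks, members made up 0.0456% (95% Wilson interval 0.0332 to 0.0626%), 0.0482% (0.0390 to 0.0595%), 0.0540% (0.0405 to 0.0721%) and 0.0396% (0.0274 to 0.0572%) in the same library order. The intervals of all 4 libraries overlap, and like all intervals here they cover counting error only.

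**Figure D2:**
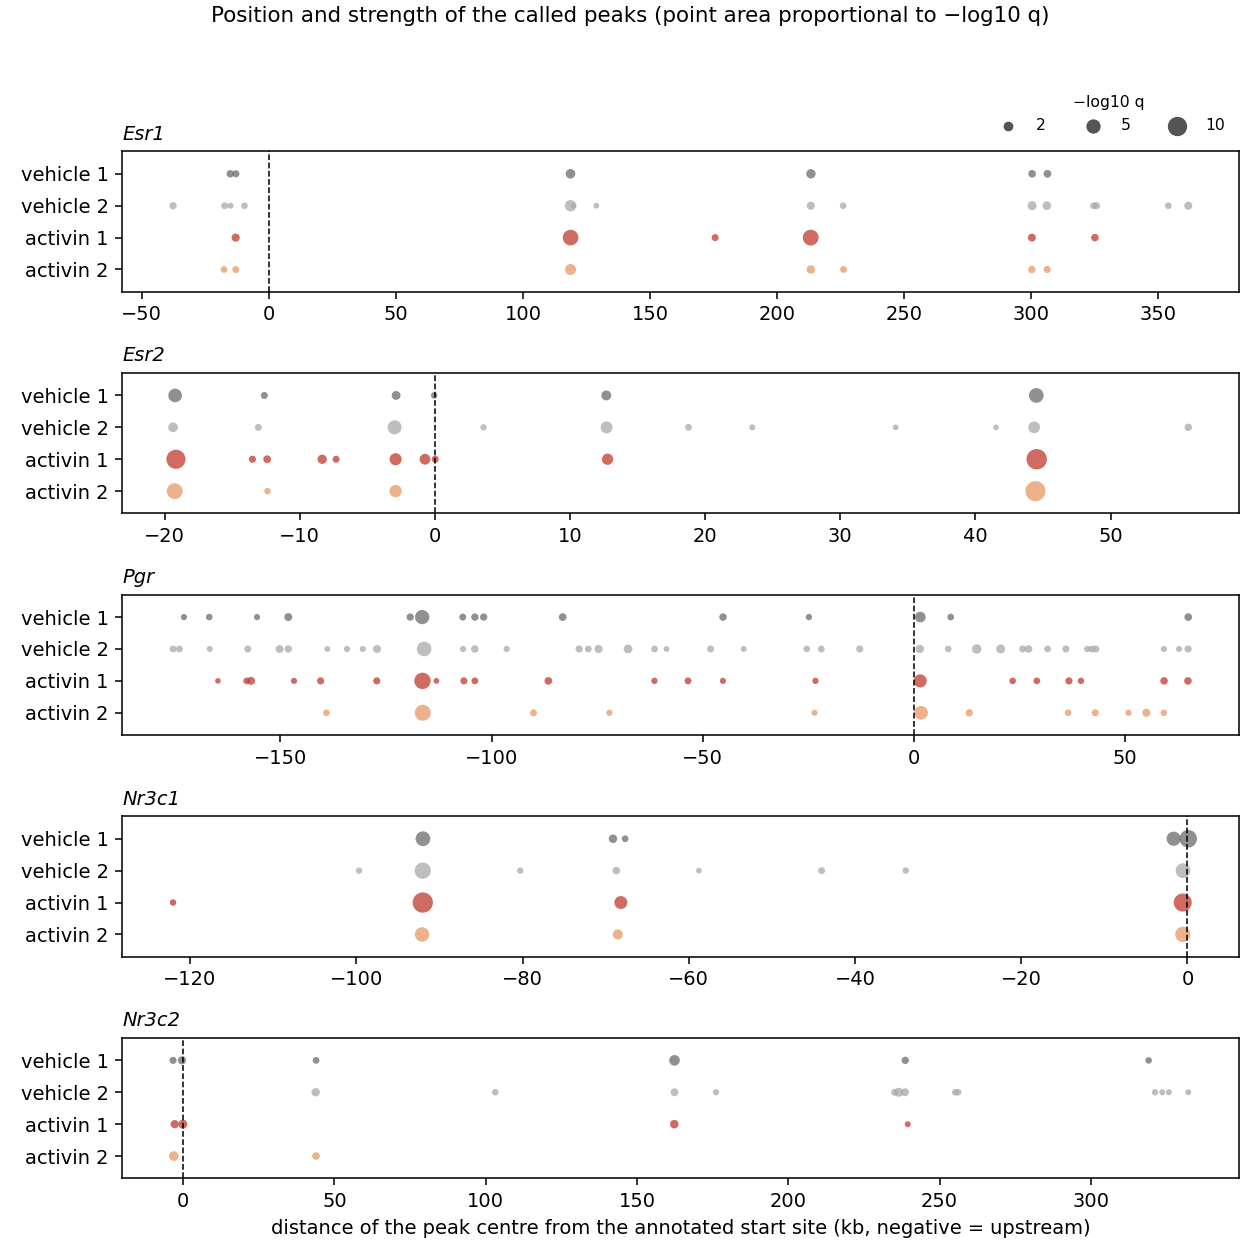
Called peaks of each receptor gene by distance from its annotated start site (kb, negative upstream), with 1 row per library and the point area proportional to the −log10 q. Columns of points present in all 4 rows are the 12 regions described in the text; the Pgr row of vehicle library 2 shows many small points that stand in that library alone.

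Of the 122 member regions, 84 were called in 1 library, 53 of them in vehicle library 2. Another 15 were called in 2 libraries, 11 in 3 and 12 in all 4. The share called in 1 library, 68.9%, stood beside 67.4% of all regions of the series, and the share called in all 4, 9.84%, beside 11.7%. No member region was called in both activin libraries and neither vehicle library, and 5 were called in both vehicle libraries and neither activin library. Of all regions, 1.35% and 4.86% had these patterns. Esr1 had 3 of the 12 regions found in every library, Esr2 4, Pgr 2, Nr3c1 3 and Nr3c2 none.

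Esr1 (ENSMUSG00000019768), which spans 394 kb on chromosome 10 in RefSeq, had its 3 regions in introns far inside the gene. Distances are from the annotated start site to the centre of the region. The region at +118.8 kb (chr10:4730207-4730493, intron 3 of 7 of the annotated transcript) had a −log10 q of 3.05 and 4.28 under vehicle, against 8.11 and 4.03 under activin. It overlapped only 11 and 5 high-quality reads under vehicle, against 21 and 3 under activin, so its density was below the library's autosomal mean in all 4 libraries, at 0.194 to 0.811 times that mean. The groups overlapped (log2 density difference −0.40 ± 0.63, SE, limma adjusted p = 0.867). The region at +213.3 kb (chr10:4824339-4825353, intron 5 of 7) was well covered, with 150 and 176 reads under vehicle, against 319 and 147 under activin. Its density, in high-quality reads per kb of the peak per 1000000 such reads of the library, was 1.07 and 0.951 under vehicle, against 1.40 and 1.01 under activin. Activin library 1 stood highest there in reads, density and −log10 q (8.29, against 2.17 to 2.91 in the others), and the groups overlapped. On the log2 density scale the difference was −0.03 ± 0.21 (limma adjusted p = 0.974).

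The third Esr1 region, at +300.4 kb (chr10:4911441-4912558, intron 6 of 9), was called with a −log10 q of 1.80 to 2.70. It held 9 and 10 reads under vehicle, against 5 and 2 under activin, and densities of 0.0330 to 0.115 times the library mean. Both activin libraries were below both vehicle libraries, with a log2 difference of −1.31 ± 0.68 (limma adjusted p = 0.566). A neighbouring intronic region at +306.2 kb was called in both vehicle libraries and activin library 2 and held 0 high-quality reads in each, which allows up to 3. Upstream of the gene, a region at −13.0 kb was called in vehicle library 1 and both activin libraries with a −log10 q of 1.62 to 2.22. It was well covered, at 3.29 to 4.00 times the mean. One region, at +324.8 kb, was annotated as the promoter of a further Esr1 transcript in vehicle library 2 (−log10 q 1.54) and as an intron in activin library 1 (1.88).

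Esr2 (ENSMUSG00000021055), on the minus strand of chromosome 12, had the most regions called in every library, and among them strong ones on either side of its start. The region at +44.5 kb (chr12:76132235-76133298, intron 6 of 7) had a −log10 q of 7.12 and 4.57 under vehicle, against 13.7 and 13.3 under activin. It overlapped 160 and 236 reads under vehicle, against 427 and 260 under activin. Both activin libraries were higher in −log10 q. The densities overlapped, at 2.34 and 1.39 under vehicle, against 1.95 and 2.51 under activin, and the called interval ranged from 398 to 979 bp. The log2 difference in density was 0.13 ± 0.25 (limma adjusted p = 0.887).

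The region upstream of Esr2 at −19.3 kb (chr12:76195904-76197186) had a −log10 q of 6.11 and 3.10 under vehicle, against 12.2 and 8.24 under activin. Its densities were 2.09 and 1.36 under vehicle, against 2.24 and 1.93 under activin. The groups were apart in −log10 q and overlapped in density (log2 difference 0.03 ± 0.18, limma adjusted p = 0.976). At −13.1 kb (chr12:76189454-76191211) the pattern was the other way round. There the −log10 q was 1.63 and 1.59 under vehicle, against 2.00 and 1.39 under activin, and the density was 0.773 and 0.777 under vehicle, against 1.12 and 1.07 under activin. The density groups did not overlap (log2 difference 0.34 ± 0.27, limma adjusted p = 0.677; −0.95 without division by the interval length), while the called interval ran from 247 bp in activin library 2 to 1758 bp in vehicle library 2.

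The region nearest the Esr2 start that was called in all libraries, at −3.0 kb (chr12:76179874-76180613), varied within each treatment. It had 7 and 98 reads under vehicle, against 29 and 13 under activin, and a −log10 q of 2.58 and 6.47 under vehicle, against 4.81 and 5.05 under activin. The groups overlapped in both (log2 density difference −0.28 ± 0.82, limma adjusted p = 0.927). At the start itself (chr12:76177136-76177399), the peaks over the window printed above had a −log10 q of 1.38 in vehicle library 1 and 1.68 in activin library 1, with 41 and 57 reads. Activin library 1 also had a promoter peak at −0.7 kb (−log10 q 3.90, 77 reads) that no other library had. In intron 3 of 7, a region at +12.7 kb had a −log10 q of 3.26 to 4.71 in both vehicle libraries and activin library 1, with 2, 98 and 39 reads.

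**Figure D3:**
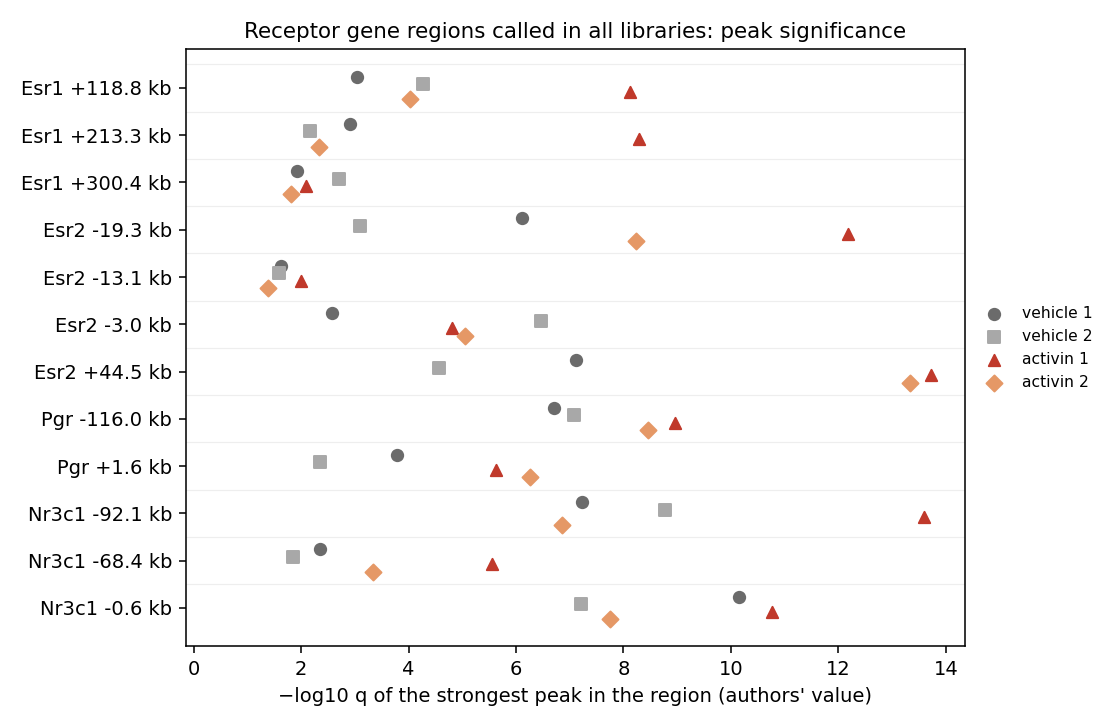
The −log10 q of the strongest peak (horizontal axis, authors' value) in each of the 12 regions called in all libraries, by library. In 5 regions both activin points lie to the right of both vehicle points, among them Esr2 at +44.5 kb with 13.7 and 13.3 against 7.12 and 4.57.

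Pgr (ENSMUSG00000031870) had a single region near its start that was called in every library, and it lay inside the gene rather than before it. The region at +1.6 kb (chr9:8900428-8902515, exon 1 of 8) overlapped 422 and 602 reads under vehicle, against 732 and 647 under activin. Its −log10 q was 3.78 and 2.36 under vehicle, against 5.63 and 6.25 under activin, and its density 1.81 and 1.62 under vehicle, against 2.21 and 1.89 under activin. Both measures were higher in both activin libraries than in either vehicle library. Centred on the library medians, the log2 difference was −0.02 ± 0.14 (limma adjusted p = 0.976), and it was 0.25 when scaled to all high-quality reads.

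The other Pgr region found in all libraries, at −116.0 kb (chr9:8782930-8784764), was the strongest of the gene by −log10 q and nearly empty of high-quality reads. Its −log10 q was 6.71 and 7.08 under vehicle, against 8.95 and 8.45 under activin, with a fold enrichment of 3.78 to 4.38. It overlapped 2 and 1 high-quality reads under vehicle, against 0 and 0 under activin. With every library at or under 3 reads, no difference in density is given, and which alignments its −log10 q rests on is not stated in the sources used here. The remaining 61 Pgr regions had a −log10 q of 1.03 to 3.01, and 41 of them were upstream of the start, as far as −175 kb.

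Nr3c1 (ENSMUSG00000024431) had the strongest promoter peak of the 5 genes by −log10 q. Its promoter region (chr18:39488939-39491953, centred −0.6 kb from the annotated start) overlapped 943 and 1145 reads under vehicle, against 1685 and 1213 under activin. The density was 2.28 and 1.79 under vehicle, against 2.62 and 2.26 under activin, which is 4.39 to 6.44 times the library mean. The −log10 q was 10.1 and 7.20 under vehicle, against 10.8 and 7.76 under activin, so the groups overlapped in every measure (log2 density difference 0.10 ± 0.16, limma adjusted p = 0.853). Vehicle library 1 had 2 peaks there and the other libraries 1, so the region missed the rule for shared regions. Over the 9689 genes whose promoter region was called in all 4 libraries, the profiles most like it across the 4 libraries were those of Pax2, ENSMUSG00000071359 and Psma1, at Euclidean distances of 0.0423, 0.0650 and 0.0745 on the log2 scale. No receptor gene had a promoter region that met the stricter rule for shared regions, so this comparison was made on the looser rule.

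Both distal Nr3c1 regions lay outside the RefSeq span of the gene (chr18:39410545-39519421), upstream on its strand. The region at −92.1 kb (chr18:39581442-39582499) had a −log10 q of 7.23 and 8.77 under vehicle, against 13.6 and 6.86 under activin. Its densities were 1.64 and 1.85 under vehicle, against 1.84 and 1.56 under activin. The groups overlapped in both, with the highest and the lowest −log10 q both in activin libraries (log2 difference −0.31 ± 0.17, limma adjusted p = 0.587). It was −0.039 when scaled to all high-quality reads and −0.051 without division by the interval length. The region at −68.4 kb (chr18:39557015-39559619) overlapped 243 and 391 reads under vehicle, against 581 and 438 under activin. There the −log10 q was 2.36 and 1.85 under vehicle, against 5.55 and 3.33 under activin, and the density 1.06 and 0.865 under vehicle, against 1.24 and 1.18 under activin. Both activin libraries were higher in both measures, and the density difference did not pass the test (log2 difference 0.17 ± 0.24, limma adjusted p = 0.833). The deposited annotation placed no Nr3c1 peak in an intron in any library. The region it calls the promoter lay inside the RefSeq span of the gene.

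Nr3c2 (ENSMUSG00000031618) had no region called in every library. Its promoter region at −2.8 kb (chr8:76898901-76900129) was called in vehicle library 1 and both activin libraries, with a −log10 q of 1.69, 2.25 and 3.03. Densities there were 1.46, 1.26 and 1.40, and the called interval was 143 bp in vehicle library 1 and 1229 and 656 bp in the activin libraries. The region at −0.3 kb (chr8:76901635-76902360) was called in vehicle library 1 (−log10 q 2.21, 113 reads) and activin library 1 (2.69, 104 reads), and only the latter peak spans the whole promoter window with its GC boxes. Vehicle library 2, the library with the most peaks, had neither. In intron 2 of 6, a region at +162.4 kb was called in 3 libraries with a −log10 q of 2.08 to 3.73 on 4, 12 and 27 reads. Another at +43.9 kb was called in 3 libraries on 0, 2 and 0 reads.

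**Figure D4:**
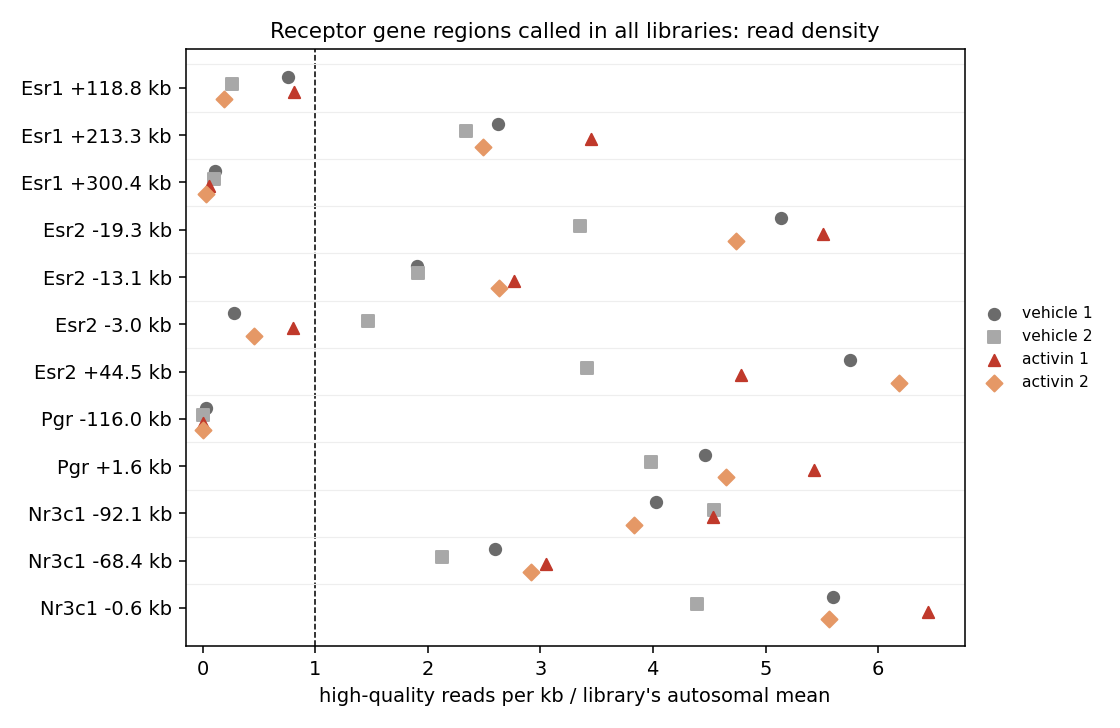
Density of high-quality reads relative to the library's autosomal mean (horizontal axis, dashed line at 1) for the 12 regions called in all libraries, by library. The regions Pgr −116.0 kb, Esr1 +300.4 kb and Esr1 +118.8 kb lie left of the line in all 4 libraries, whereas the Nr3c1 promoter lies between 4.39 and 6.44.

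Read density thus did not follow the deposited −log10 q in every receptor region. Of the 12 regions called in all libraries, 7 had at least 2 times the mean density in every library, and 3 were below the mean in every library. The like shares over all regions called in every library are not given here, and the comparison that follows is by peak. Over all member peaks, 26.3%, 14.0%, 21.7% and 25.0% were below the mean, in the order of vehicle 1, vehicle 2, activin 1 and activin 2, against 10.4%, 8.15%, 10.9% and 10.9% of all autosomal peaks. Member peaks below 0.1 times the mean numbered 5, 5, 4 and 4. They made up 13.2% (95% Wilson interval 5.75 to 27.3%), 5.81% (2.51 to 12.9%), 8.70% (3.43 to 20.3%) and 14.3% (5.70 to 31.5%) of member peaks, beside 5.00%, 3.64%, 5.34% and 5.38% of all autosomal peaks. They lay in Esr1, Esr2 and Nr3c2 introns and at −113.1 and −116.0 kb from Pgr. What sets such peaks apart was not tested.

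By treatment, the receptor regions were set beside all regions of the series. In 5 of the 12 regions the −log10 q of each activin library exceeded that of each vehicle library, beside 56.8% of all regions called in every library, and in none was it lower in both, beside 5.44%. The 5 were Esr2 at +44.5 and −19.3 kb, both Pgr regions, and Nr3c1 at −68.4 kb. Without Pgr at −116.0 kb, whose −log10 q stood on 0 to 2 high-quality reads, the count was 4 of 11. The median ratio of the activin mean to the vehicle mean of −log10 q was 1.47 over the 12 regions and 1.47 over all 29896. Density was higher in both activin libraries in 3 regions (Esr2 −13.1 kb, whose difference turned without division by the length, Pgr +1.6 kb and Nr3c1 −68.4 kb), beside 41.0% of all autosomal regions. Among the 11 regions with more than 3 reads in some library it was lower in both in 1, beside 8.70%. That was Esr1 at +300.4 kb, which held at most 10 reads in any library. Start-site enrichment, which was higher in both activin libraries, moved in the direction of the rise in −log10 q, and its part in it was not tested.

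**Figure D5:**
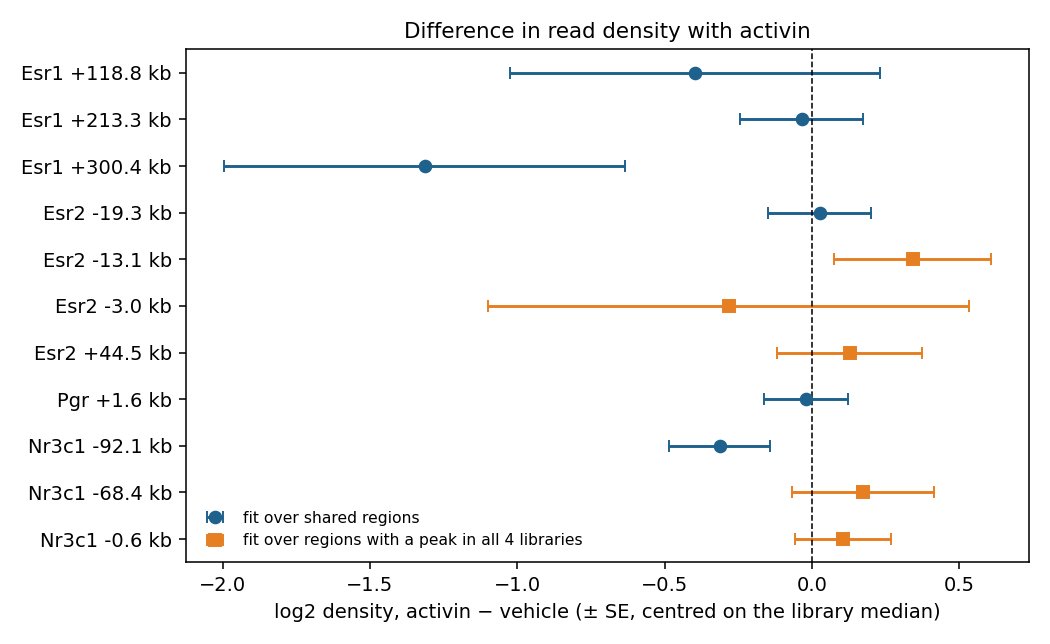
Difference in log2 density, activin minus vehicle, with its standard error (horizontal axis, centred on the library median) for the 11 regions with reads enough for one. Circles come from the fit over shared regions and squares from the fit over all regions called in every library; none passed the adjusted threshold, and the widest bars belong to Esr2 −3.0 kb, Esr1 +300.4 kb and Esr1 +118.8 kb.

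None of the receptor regions passed the test for a difference in density. The limma fit over 13871 shared regions, which have exactly 1 peak per library and a common part of at least 50%, called none at an adjusted p of 0.05 (0% called). At an unadjusted p under 0.05 there were 1322. Scaled to all high-quality reads, which moved the median region by 0.27, the fit called 605 (553 higher and 52 lower with activin), none of them a receptor region. The 6 member regions in the fit as reported had no unadjusted p under 0.05. Their median log2 difference was −0.17 (0.10 when scaled to all high-quality reads), beside −0.00489 over all shared regions. Among regions with a mean of at least 50 high-quality reads, 4 were member regions, and their median was −0.033, beside −0.0014 over all 12722. The looser fit over 28977 regions also called none (0%), with 2724 at an unadjusted p under 0.05 and none of these among the members. Simulated libraries gave each region the smoothed spread of these libraries at its density, so regions of like density did not differ in spread. Counting noise was drawn on top of that spread, which already held it. In these simulated libraries the fit recovered 169 of 200 shared regions changed by 1 on the log2 scale and called 2 unchanged ones. The changed regions were drawn at random, and 5 of the 11 receptor regions with a difference were not shared regions. The simulation therefore does not say how often such a change in a given receptor region would be found.

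Genes that act with the receptors were examined at their start sites. Of 36 such genes, 35 were named in the annotation and 33 had a peak at the start in at least 1 library. Of the 33, 23 had one by the annotation in all 4 libraries, beside the 52.9% above. Pgrmc2 had a start-site peak by the annotation in 3 libraries and Fkbp5 in 2. For both, the promoter region they fell in was nonetheless called in all 4 libraries. The counts here and below leave these 2 genes out of those with a start-site peak in every library. Of the 23, 20 had a higher −log10 q there in both activin libraries, beside 73.7% of the 11120 genes with a start-site peak in every library. All 6 glucocorticoid target genes had a start-site peak in every library. Among them were Per1 (−log10 q 25.0 and 20.1 with vehicle, 41.3 and 37.3 with activin) and Tsc22d3 (4.40 and 4.31, then 9.82 and 7.35). For Dusp1 the groups overlapped (15.63 and 14.71, then 29.33 and 15.55). The log2 density difference of Per1 was 0.02 ± 0.10 (limma adjusted p = 0.973), and Tsc22d3 had no region in that fit. A start-site peak in every library was also found for 5 of the 6 chaperone genes named in the annotation, whose products hold unliganded receptors. Of the estrogen target genes, Greb1 and Xbp1 did and Tff1 and Pdzk1 did not. Among coactivators, membrane receptors and membrane components the count was 4 of 7, and among corepressors 1 of 3 (Nrip1). Among steroid-converting enzymes it was 3 of 5, and among the estrogen-related receptors 1 of 3 (Esrra).

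Of these genes, 19 had a start-site region that could be tested, and none passed the limma test. Their log2 differences ran from −0.29 to 0.40 with a median of 0.06, beside −0.00489 over all shared regions, and 3 had an unadjusted p under 0.05. The highest was Srd5a1, which encodes a steroid 5α-reductase (0.40 ± 0.10, limma adjusted p = 0.405). The others were Nrip1, a corepressor of nuclear receptors (0.25 ± 0.10, limma adjusted p = 0.509), and Pgrmc2, which encodes a progesterone receptor membrane component (−0.29 ± 0.11, limma adjusted p = 0.477).

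The 110 receptor regions not called in every library were weak. The strongest −log10 q in any library had a median of 1.55 and a maximum of 4.71, in the Esr2 intron at +12.7 kb, and 21 of the 110 reached 2. By gene, 9 of 61 did for Pgr, 6 of 17 for Nr3c2, 3 of 15 for Esr1, 3 of 11 for Esr2 and none of 6 for Nr3c1.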

How the data were processed

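The 4 libraries each had 3 deposited files. Per the submitters' processing notes, Bowtie2, MACS2 and HOMER were used with GRCm38 and mm10; their versions and settings are not given in the sources used here. The authors deposited broad peaks called per library, with a score, a fold enrichment and the −log10 of the p-value and of the q-value. Other values came from the deposited annotation and from the ataqv 1.3.1 quality report, per the file headers, which counts high-quality autosomal reads over each peak. Peaks were called per library, so presence depends on depth and background.

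The 5 genes and the gene lists were chosen with earlier results of these data known. Peaks were merged on an overlap of at least 1 bp. Regions described in full were those called in all 4 libraries, annotated as promoter, or at 5 or more on the −log10 q scale. Densities, log2 of reads plus 1 divided by the kb length of each library's peak, were centred on the library median and fitted with limma 3.58.1 (R 4.3.3, eBayes with trend, no block), with Benjamini-Hochberg adjustment over all regions of the fit. The added read shrinks log2 differences where reads are few. Regions that missed the shared rule were taken from a fit over all regions called in every library. Single values were compared by exact permutation. Promoter sequences came from RefSeq GRCm38.p6, without a genome; the Nr3c1 sequence is not used here. The fit was tested on simulated data. The labels do not say whether libraries came from separate cultures, so p-values measure the spread between these libraries, which may be technical. An item of the gene list is not reported here by name. Alternatives are given in the closing section.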

Additional observations from a re-analysis of the deposited data

How the results depend on the processing

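No receptor region passed the adjusted threshold under any alternative run (lowest adjusted p = 0.267 over 98 alternative values of 11 regions). Of the 98, 15 changed sign. The 4 regions that never did ranged from −1.76 to −0.54 (Esr1 +300.4 kb), 0.012 to 0.27 (Nr3c1 promoter), 0.12 to 0.35 (Nr3c1 −68.4 kb) and −0.49 to −0.039 (Nr3c1 −92.1 kb). Scaled to all high-quality reads, the log2 difference became 0.25 for Pgr +1.6 kb, 0.24 for Esr1 +213.3 kb and 0.10 for the median over the 6 shared receptor regions (−0.17 as reported); this scaling moved the median of all shared regions by 0.27. Fitted over all regions called in every library, Pgr +1.6 kb gave 0.086 and Esr1 +213.3 kb 0.072. With a mean of at least 50 high-quality reads required, 4 shared receptor regions were left, and their median was −0.033. Without division by the interval length, Esr2 −13.1 kb gave −0.95.

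Leaving out each library in turn gave −0.095 to 0.053 for Pgr +1.6 kb, −1.22 to 0.42 for Esr1 +118.8 kb, −0.23 to 0.16 for Esr1 +213.3 kb, −0.16 to 0.42 for Esr2 +44.5 kb, −1.47 to 0.91 for Esr2 −3.0 kb, −0.20 to 0.25 for Esr2 −19.3 kb and −0.31 to 0.075 for the median. The cause was not tested. The number of shared regions called, 0 as reported, was 605 when scaled to all high-quality reads (553 higher, 52 lower), 39 without the length (5 higher, 34 lower), 1 with a pseudocount of 10 reads, 2 with a common part of at least 75% and 0 to 9 without 1 library, with 9 lower without activin library 2. With the replicate number as a block it was 4, none of them a receptor region. The labels do not say what same-numbered libraries share, and their deviations had a correlation of −0.0252 over 13871 regions, from 2 pairs.

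The difference in receptor peak number, −25.0 as reported, was −3.5 at a −log10 q of at least 2, 3.0 at 5 or more, −3.5 with equal numbers of peaks, −15.0 by nearest gene alone and −49.0 to −1.0 without 1 library. Among peaks at or above the mean density, an alternative chosen after seeing the data, it was −22.5. The fits for regions that missed the shared rule were added likewise. With 2 libraries a group, exact tests could not pass 0.05.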
